A study of Mus musculus with 24 samples.

Results

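Cytotoxic lymphocytes kill by releasing granules that hold granzymes, perforins and the proteins that pack and guard them. The 10 genes described here are the granzymes Gzma, Gzmb, Gzmc, Gzmk and Gzmm, the pore formers Prf1 and Mpeg1, the granule proteins Nkg7 and Srgn, and the granzyme inhibitor Serpinb9. They were taken by symbol from the probe set annotation of a mouse Affymetrix array, with the probe set of the highest mean where a gene had several, and all 10 of 10 were found among the 22180 genes tested. The RNA came from naive CD4 T cells of TRIM28 knockout mice (KO) and of wild-type littermates (WT), which were enriched on magnetic beads and sorted by flow cytometry. Each genotype was measured before stimulation (0 h) and 4, 24 and 72 h after stimulation with plate-bound anti-CD3 and soluble anti-CD28, with 3 arrays in each of the 8 groups. The stimulated groups of both genotypes thus share the same agents, and the mice are littermates. The promoter or Cre line behind the knockout, the sort gate, the strain and the age of the mice, and whether a group's arrays come from separate or pooled animals were not stated in the labels, so each p-value rests on scatter among arrays that may be partly technical.

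Granzymes are serine proteases that enter a target cell through pores made by perforin, where granzyme B cuts after aspartate and sets off cell death. They lie in acidic granules bound to serglycin, the proteoglycan that Srgn encodes, and Serpinb9 is the cytosolic inhibitor that protects the killer cell from its own granzyme B. In T cells these genes are best known from CD8 effectors, and stimulated CD4 T cells can also make granzyme B, with the T-box factors T-bet (Tbx21) and EOMES among the known regulators of the program. TRIM28 is a corepressor that zinc finger proteins with a KRAB domain bring to chromatin.

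Of the 10 genes, 4 were lower in KO than in WT at 72 h: Gzmb, Mpeg1, Nkg7 and Serpinb9. Their promoters are shown because these 4 genes, on 4 different chromosomes, carried the difference between genotypes. The 250 bases before the start site are from RefSeq (GRCm38.p6), read 5′ to 3′ on the strand of the gene: Gzmb from chr14:56262335-56262584 on the minus strand, Mpeg1 from chr19:12460520-12460769, Nkg7 from chr7:43436888-43437137 and Serpinb9 from chr13:33004291-33004540, these 3 on the plus strand. Capitals mark matches, on either strand, to any of 7 short motifs: AP-1 (TGANTCA), T-box (GGTGTGA), RUNX (TGTGGTT), STAT (TTCNNNGAA), NFAT (GGAAAA), ETS (CCGGAAG) and the motif of GATA factors (AGATAA).
Gzmb: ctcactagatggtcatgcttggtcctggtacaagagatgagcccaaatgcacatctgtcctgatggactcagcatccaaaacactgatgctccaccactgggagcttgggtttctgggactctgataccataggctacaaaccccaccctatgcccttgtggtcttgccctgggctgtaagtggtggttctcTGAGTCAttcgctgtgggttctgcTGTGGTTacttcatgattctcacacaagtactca
Mpeg1: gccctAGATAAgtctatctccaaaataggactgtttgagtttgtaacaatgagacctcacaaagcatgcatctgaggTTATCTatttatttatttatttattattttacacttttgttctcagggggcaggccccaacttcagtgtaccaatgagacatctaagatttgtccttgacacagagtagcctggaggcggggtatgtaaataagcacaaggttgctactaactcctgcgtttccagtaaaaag
Nkg7: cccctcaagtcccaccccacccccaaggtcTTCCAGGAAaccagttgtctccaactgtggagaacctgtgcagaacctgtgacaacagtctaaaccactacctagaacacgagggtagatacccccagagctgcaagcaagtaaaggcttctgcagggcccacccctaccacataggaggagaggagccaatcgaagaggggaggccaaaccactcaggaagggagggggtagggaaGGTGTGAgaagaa
Serpinb9: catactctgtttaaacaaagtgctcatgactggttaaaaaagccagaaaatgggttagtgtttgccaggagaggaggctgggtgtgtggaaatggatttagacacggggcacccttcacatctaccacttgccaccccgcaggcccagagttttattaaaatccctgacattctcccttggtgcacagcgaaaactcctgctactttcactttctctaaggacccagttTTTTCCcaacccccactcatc
The Gzmb promoter held an AP-1 match from 58 to 52 bases before the start and a RUNX match from 34 to 28 bases before it. The Nkg7 promoter held a T-box match from 13 to 7 bases and a STAT match from 220 to 212 bases before the start. The Mpeg1 promoter held 2 GATA matches, from 245 to 240 and from 173 to 168 bases, and the Serpinb9 promoter an NFAT match from 21 to 16 bases, before the start. Over 32851 promoters of the same length, 6.75% held the AP-1 motif, 3.33% the T-box, 4.4% the RUNX, 7.02% the STAT, 20.4% the NFAT, 9.99% the GATA and 6.91% the ETS motif. All 10 genes had a promoter in the table, 12 in all, and no motif was found in all 4 genes shown. The RUNX motif was also found in Gzma, Gzmc and Srgn, and the T-box motif in Gzmk and Gzmm. The NFAT motif was also found in Gzma, Gzmm and Srgn, and the STAT and GATA motifs in Gzmm. The AP-1 motif was found in no other member. None of these other genes was called between KO and WT. Of these, Gzma, Gzmc and Gzmk had mean log2 intensities of 3.02, 2.60 and 2.38 over all arrays. Such low values cannot be told from background, so the lack of a call in these genes says little. A match is a description of the letters, and binding was not measured.

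Levels are log2 intensities from the deposited table, and changes are differences between group means, each with its standard error (SE) from a limma fit to all 24 arrays. A change is called when its p, adjusted by Benjamini-Hochberg across the 22180 genes, is under 0.05, and "rose", "fell", "higher" and "lower" are used of such changes. Array medians lay between 3.59 and 3.76. The targeted gene, Trim28, was lower in KO throughout, at 5.16 ± 0.26 against 7.78 ± 0.07 (SD, n = 3) at 0 h and 5.55 ± 0.32 against 8.64 ± 0.13 at 72 h, with changes from -2.62 at 0 h to -3.58 at 24 h (SE 0.13, adjusted p from 2.53e-16 to 1.17e-13). The labels do not say whether the probes lie in the deleted part of the gene. Arrays numbered 3 had male and arrays 1 and 2 female levels of sex-linked genes in every group (Xist between 3.03 and 4.79 against 9.61 to 10.29), a split that is balanced over the groups. Array 3 of a group thus came from other animals than arrays 1 and 2. Whether arrays 1 and 2 share animals, or arrays of 1 number do so over the times, is not stated. The mean of 8 CD4 T cell markers lay between 10.1 and 10.4 on every array. Of these 8, Cd3d, Cd3e and Cd3g were higher in KO at 72 h (0.37, 0.35 and 0.30) and Ccr7 lower (-0.25), and the same 4 genes were higher at 24 h (0.40, 0.20, 0.25 and 0.29). Cd5 was lower at 0 h (-0.35) and Ccr7 higher at 4 h (0.65).

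**Figure D1:**
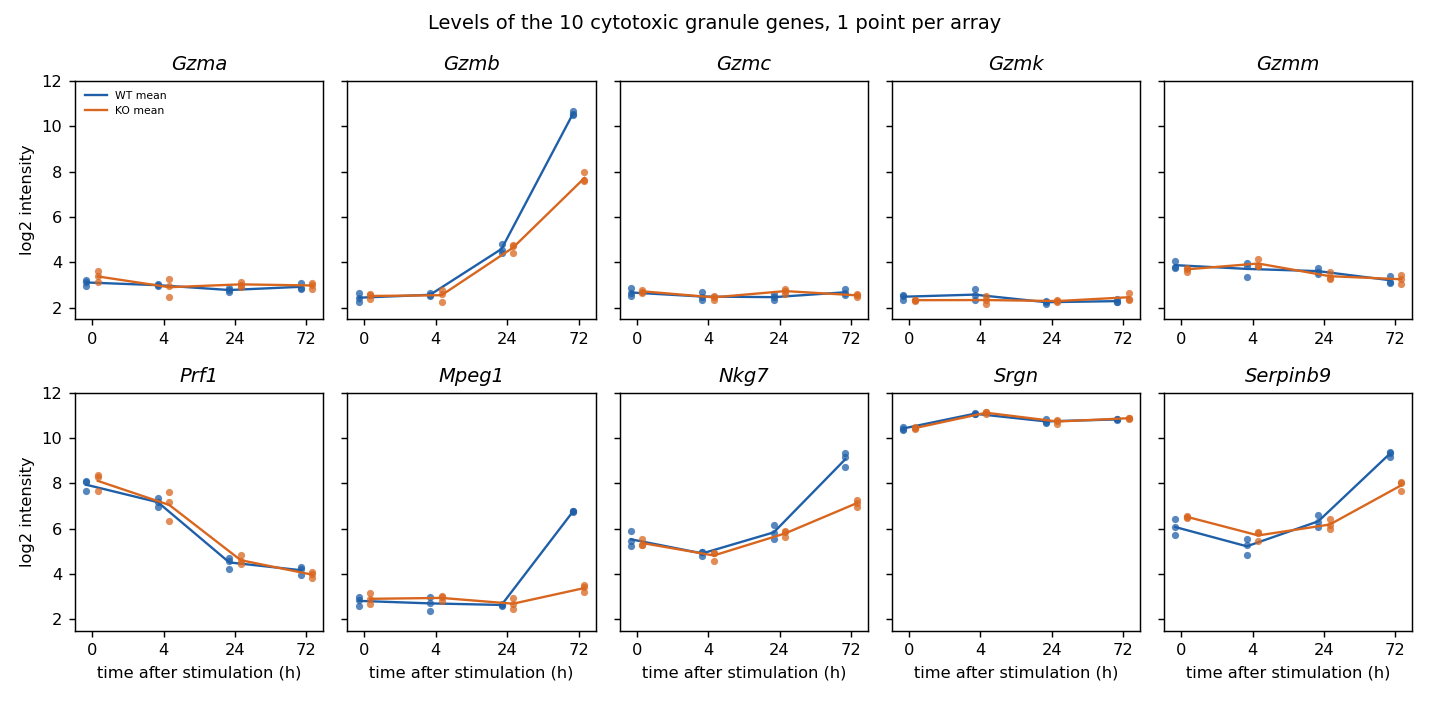
Level of each of the 10 genes (log2 intensity, vertical axis) by time after stimulation (h, evenly spaced for clarity), with 1 point per array and lines through the means of 3 arrays, WT in blue and KO in orange. Gzmb, Mpeg1, Nkg7 and Serpinb9 separate by genotype at 72 h, where the WT arrays of Gzmb sit between 10.48 and 10.67 and the KO arrays between 7.57 and 7.97.

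Among the granzymes, Gzmb was the one that rose from its 0 h level. In WT the 3 arrays of 0 h read 2.42, 2.67 and 2.24, those of 4 h 2.65, 2.50 and 2.57, those of 24 h 4.42, 4.57 and 4.80, and those of 72 h 10.67, 10.48 and 10.53. In KO the 0 h arrays read 2.39, 2.58 and 2.60, the 4 h arrays 2.62, 2.28 and 2.78, the 24 h arrays 4.74, 4.43 and 4.79, and the 72 h arrays 7.63, 7.57 and 7.97. The arrays of both genotypes overlapped at 0, 4 and 24 h and stood apart at 72 h, with every KO array below every WT array. From 0 to 72 h the WT level rose by 8.12 (SE 0.14, adjusted p = 2.36e-23), or 278-fold, the highest rise of all 22180 genes. In KO it rose by 5.20 (adjusted p = 3.87e-20), or 36.8-fold, rank 16 from the highest. The values at 0 and 4 h were too low to be told from background, so both folds depend on that floor. At 72 h Gzmb was 7.15-fold lower in KO (-2.84, SE 0.14, adjusted p = 1.99e-13), the eighth lowest change in that comparison.

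The early phase of the Gzmb response did not differ detectably by genotype. Between 0 and 4 h its change was 0.13 in WT and 0.04 in KO, not called in either (adjusted p = 0.560 and 0.910). At levels that cannot be told from background, the lack of a call at 0 and 4 h says little. By 24 h Gzmb had risen by 2.15 in WT and 2.13 in KO (adjusted p = 1.27e-12 and 2.85e-12). KO minus WT at 24 h was 0.06, with a 95% confidence interval from -0.24 to 0.35. From 24 to 72 h it then rose by 5.97 in WT and 3.07 in KO (adjusted p = 2.26e-20 and 2.37e-14; 27.4% and 17.7% of all genes were called in these comparisons).

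The other granzymes gave low values at all times. Gzma, whose product is a tryptase, had group means between 2.78 (WT, 24 h) and 3.38 (KO, 0 h). Gzmc lay between 2.46 and 2.74 and Gzmk between 2.25 and 2.58. Over all arrays these 3 had means below 3.24, the 40th percentile of all genes, and the table has no detection calls, so a low level cannot be told from background. Gzmm went from 3.88 ± 0.17 (SD, n = 3) at 0 h to 3.22 ± 0.16 at 72 h in WT, a fall by 0.66 (SE 0.15, adjusted p = 0.00053), and from 3.696 ± 0.085 to 3.260 ± 0.19 in KO (-0.44, adjusted p = 0.0193). None of these 4 was called between KO and WT at any time. At 72 h KO minus WT was 0.06 for Gzma, -0.14 for Gzmc, 0.17 for Gzmk and 0.04 for Gzmm (SE between 0.10 and 0.15, adjusted p between 0.525 and 0.969), and their arrays overlapped.

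Gzmc and Gzmb lie beside each other in the granzyme cluster of chromosome 14, with Gzmd, Gzmf, Gzmg and Gzmn. Of these other 4 cluster genes 0 were called in KO against WT at 72 h (6.33% of all genes called), with a median change of 0.07. Between 0 and 72 h 0 were called in either genotype (40.5% of all genes called in WT and 39.7% in KO). Their group means lay between 2.23 and 2.72, too low to be told from background. Gzme, which was measured with a probe set shared with Gzmd (between 3.13 and 3.96 on all arrays), was not tested. Within the cluster Gzmb alone, among the genes tested, was called between 0 and 72 h, and the low values of the others limit that comparison.

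The 2 pore formers moved in opposite directions. Prf1, which encodes perforin, was 8.09, 7.65 and 8.08 in WT and 8.35, 8.29 and 7.68 in KO at 0 h. At 72 h it was 4.24, 4.31 and 3.98 in WT and 3.85, 4.09 and 3.99 in KO. The genotypes overlapped at both times, and every array at 72 h lay below every array at 0 h. The level fell by 3.77 in WT, or 13.6-fold, and by 4.14 in KO, or 17.6-fold (SE 0.22, adjusted p = 8.58e-14 and 1.47e-14). These changes ranked 21 and 11 from the lowest of all genes.

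The fall of Prf1 began early. At 4 h it was -0.77 in WT and -1.06 in KO (adjusted p = 0.00703 and 0.000348), and at 24 h -3.42 and -3.50 (adjusted p = 6.04e-13 and 7.49e-13). Thereafter the WT change from 24 to 72 h, -0.34, was not called (adjusted p = 0.297). In KO it was -0.64 (adjusted p = 0.0456), a call that was lost in 15 of 34 alternatives, among them without KO array 1 of 24 h (-0.53, adjusted p = 0.192). KO minus WT was 0.17, -0.12, 0.10 and -0.20 at 0, 4, 24 and 72 h (SE 0.22, adjusted p between 0.827 and 0.862). At 72 h its 95% confidence interval ran from -0.65 to 0.26. The WT mean of Prf1 had by then fallen to 4.17. A loss of the size seen for Gzmb would take it below the values of Gzmc and Gzmk. The interval therefore cannot show whether Prf1 was spared such a loss. A further Prf1 probe set, annotated also to a gene named COX2, read between 11.62 and 12.02 on all arrays. It had the higher mean (11.87 against 5.94) but was not used because it names 2 genes. The fall of Prf1 is thus that of the probe set annotated to Prf1 alone, and the other did not show it.

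Mpeg1, which encodes perforin-2, a pore former best known from macrophages, rose late and in WT. At 72 h it was 6.77, 6.77 and 6.74 in WT and 3.53, 3.20 and 3.43 in KO. On the 18 arrays of 0, 4 and 24 h it lay between 2.38 and 3.18, without separation by genotype. Such low values cannot be told from background, so that lack of separation says little, and folds from 0 h depend on that floor. The WT level rose by 3.94 from 0 to 72 h (SE 0.15, adjusted p = 1.62e-17), or 15.4-fold, all of it after 24 h: the change from 0 to 24 h was -0.18 (adjusted p = 0.389). In KO the change from 0 to 72 h was 0.48 (adjusted p = 0.0123), or 1.39-fold, and this call was lost without KO array 1 of 0 h (0.35, adjusted p = 0.09999) or without KO array 1 of 72 h (0.41, adjusted p = 0.0647). At 72 h Mpeg1 was 10.4-fold lower in KO (-3.38, SE 0.15, adjusted p = 1.59e-14). That was the lowest of all 22180 changes in this comparison. The KO mean at 72 h, 3.39, was close to the low values of the earlier times, so this fold also depends on the floor.

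The 2 granule proteins also differed from each other. Nkg7, a membrane protein of cytotoxic granules needed for their release, was 5.47, 5.25 and 5.88 in WT and 5.53, 5.29 and 5.28 in KO at 0 h. At 4 h it was lower in both genotypes, by 0.62 in WT and 0.55 in KO (SE 0.16, adjusted p = 0.00355 and 0.0107). The KO call at 4 h was lost without KO array 1 of 0 h (-0.47, adjusted p = 0.0616) or KO array 2 of 4 h (-0.44, adjusted p = 0.0778). At 24 h the means were 5.84 ± 0.32 (SD, n = 3) in WT and 5.80 ± 0.13 in KO. At 72 h the arrays read 9.33, 9.15 and 8.71 in WT against 7.26, 7.15 and 6.98 in KO, with no overlap. The rise from 0 to 72 h was 3.53 in WT, or 11.5-fold, and 1.76 in KO, or 3.38-fold (SE 0.16, adjusted p = 8.46e-16 and 9.99e-10). KO was 3.82-fold lower at 72 h (-1.94, SE 0.16, adjusted p = 5.37e-09).

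Srgn, the serglycin gene, followed another course. Its group means lay between 10.42 (WT, 0 h) and 11.11 (KO, 4 h). It rose by 0.65 at 4 h in WT and by 0.68 in KO (SE 0.05, adjusted p = 4.49e-11 and 2.78e-11), and fell back by 0.34 and 0.39 from 4 to 24 h (adjusted p = 5.501e-06 and 9.15e-07, where 32.6% and 28.3% of all genes were called). At 72 h it was 10.79, 10.83 and 10.85 in WT and 10.90, 10.85 and 10.88 in KO. These arrays did not overlap, by a margin within the scatter of other groups, and KO minus WT was 0.05 with a 95% confidence interval from -0.05 to 0.16 (adjusted p = 0.769).

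Serpinb9, the granzyme B inhibitor, moved down and then up. In WT the 0 h arrays read 6.42, 5.74 and 6.06, the 4 h arrays 5.28, 4.84 and 5.55, the 24 h arrays 6.30, 6.06 and 6.62, and the 72 h arrays 9.35, 9.39 and 9.17. In KO those of 0 h read 6.52, 6.56 and 6.495, those of 4 h 5.47, 5.80 and 5.85, those of 24 h 6.14, 5.98 and 6.43, and those of 72 h 7.68, 8.04 and 8.02. KO arrays lay above WT arrays at 0 h, overlapped them at 4 and 24 h, and lay below them at 72 h. The fall at 4 h was 0.85 in WT and 0.82 in KO (SE 0.17, adjusted p = 0.000229 and 0.000372). From 0 to 72 h the level rose by 3.23 in WT, or 9.38-fold, and by 1.39 in KO, or 2.61-fold (adjusted p = 1.21e-14 and 1.51e-07). KO was 2.62-fold lower at 72 h (-1.39, SE 0.17, adjusted p = 2.64e-06). At 0 and 4 h KO minus WT was 0.45 and 0.48 (SE 0.17), not called over all genes (adjusted p = 0.227 and 0.138). Without WT array 3 of 4 h the latter was 0.64 (adjusted p = 0.0464).

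**Figure D2:**
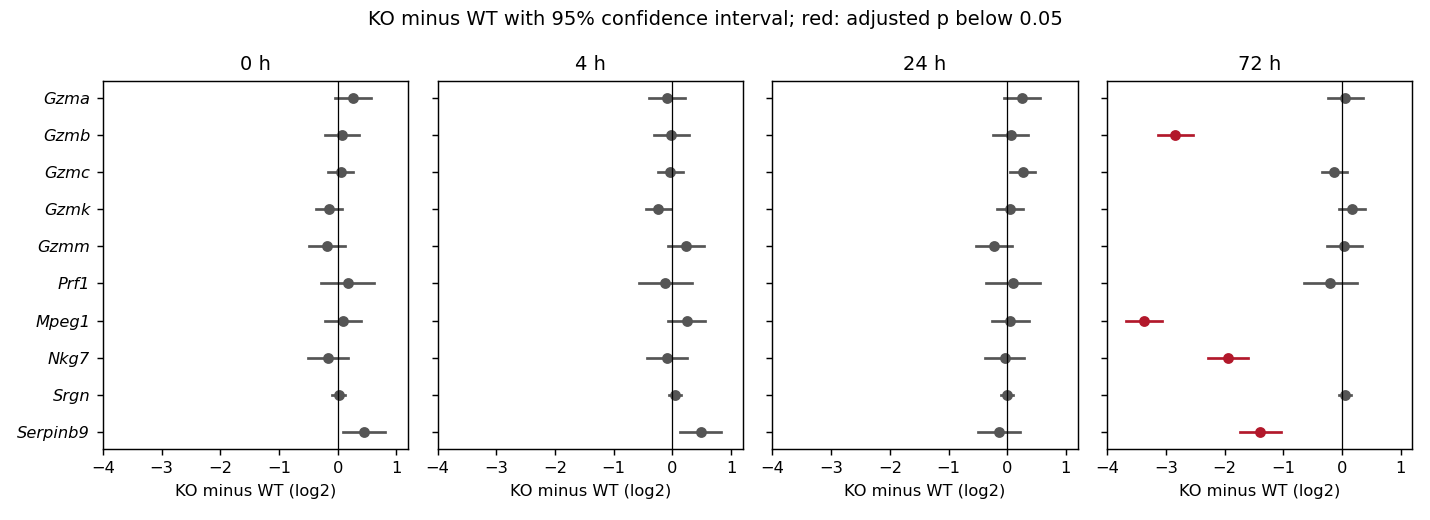
KO minus WT for the 10 genes (log2, horizontal axis) at each time, with 95% confidence intervals from limma's fit, in red where the adjusted p is below 0.05. The 4 red points are at 72 h, and the other intervals are centred between -0.24 and 0.48.

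KO and WT were compared at each time to ask what loss of TRIM28 does to these genes before and after stimulation. At 0 h 0 of 10 were called (2.34% of all genes were called in this comparison), at 4 h 0 of 10 (4.13% of all genes) and at 24 h 0 of 10 (11.3% of all genes). At an unadjusted p below 0.05 there were 1 at 0 h (Serpinb9), 2 at 4 h (Gzmk and Serpinb9) and 1 at 24 h (Gzmc) by limma. At 72 h 4 of 10 were lower and 0 higher, where 3.78% of all genes were lower and 6.33% were called in either direction. The median over the 10 was -0.17, against 0.01 over all genes, so the median gene of the group moved little and the difference was carried by 4 members. The arrays did not overlap for 2, 0, 2 and 5 of the 10 genes at 0, 4, 24 and 72 h, against 16.9%, 16.2%, 27.2% and 24.6% of all genes. In these bulk samples, fewer cells that express a gene and less RNA per cell cannot be told apart.

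Stimulation alone moved many genes in both genotypes. From 0 to 72 h in WT 5 of 10 rose (Gzmb, Mpeg1, Nkg7, Serpinb9 and Srgn) and 2 fell (Prf1 and Gzmm), where 40.5% of all genes were called, 22.2% higher and 18.3% lower. In KO 5 rose, the same genes by name, and 3 fell (Prf1, Gzmm and Gzma), where 39.7% of all genes were called, 21.1% higher and 18.6% lower. The falls of Gzma (-0.40, SE 0.15, adjusted p = 0.0316) and Gzmm in KO were each lost when any of several single arrays was left out, for example without KO array 3 of 72 h (-0.32 and -0.34, adjusted p = 0.141 and 0.115). At 4 h Srgn rose and Prf1, Nkg7 and Serpinb9 fell in WT (34.7% of all genes called). In KO the same 4 genes did so (31.1% of all genes called), with a call of Gzma (-0.48, adjusted p = 0.013) that was lost without KO array 1 of 4 h (-0.26, adjusted p = 0.176). At 24 h Gzmb and Srgn rose and Prf1 fell in both genotypes (39.7% of all genes called in WT and 34% in KO). The 24 h call of Nkg7 in KO, 0.43 (adjusted p = 0.0479), was lost in many settings, among them without KO array 2 of 24 h (0.38, adjusted p = 0.142). Comparisons with 0 h within a genotype share the 0 h arrays.

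The order of levels within each gene follows from these changes. In WT, Gzmb was lowest at 0 and 4 h, with no call between them, higher at 24 h and highest at 72 h. Nkg7 and Serpinb9 were lowest at 4 h and highest at 72 h, while the changes from 0 to 24 h, 0.31 and 0.25, were not called (adjusted p = 0.154 and 0.272). That of Nkg7 was called in 3 of 34 alternatives: without WT array 3 of 0 h (0.48, adjusted p = 0.028), without WT array 2 of 24 h (0.46, adjusted p = 0.0436) and on arrays 1 and 2 only (0.499, adjusted p = 0.0403). For Mpeg1 in WT no change among 0, 4 and 24 h was called (adjusted p between 0.389 and 0.781), and 72 h was highest. Prf1 was highest at 0 h, then 4 h, with no call between 24 and 72 h in WT. In KO, Gzmb had the same order as in WT, and Nkg7 and Serpinb9 were again highest at 72 h.

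Whether KO and WT cells responded differently to stimulation was tested directly for each gene. From 0 to 72 h the KO response was smaller for 4 of 10 genes (2.86% of all genes had a called lower response, and 3.91% a called one in either direction). Among all called genes 27% were higher in this test, a share that became 42.5% when the table was quantile normalized again. The difference was -3.47 for Mpeg1 (SE 0.21, adjusted p = 3.62e-11), -2.91 for Gzmb (SE 0.20, adjusted p = 3.24e-10), -1.84 for Serpinb9 (SE 0.24, adjusted p = 1.64e-05) and -1.77 for Nkg7 (SE 0.23, adjusted p = 1.62e-05). It uses the same 72 h arrays as the KO and WT comparison and adds the 0 h arrays, so the 2 tests are not independent. For Prf1 it was -0.37 (SE 0.31, adjusted p = 0.705) and for Srgn 0.04 (SE 0.07, adjusted p = 0.900). From 0 to 4 h and from 0 to 24 h 0 of 10 were called (0.726% and 5.87% of all genes), with 0 and 1 at an unadjusted p below 0.05, the latter Serpinb9 at 24 h (-0.60, adjusted p = 0.162).

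**Figure D3:**
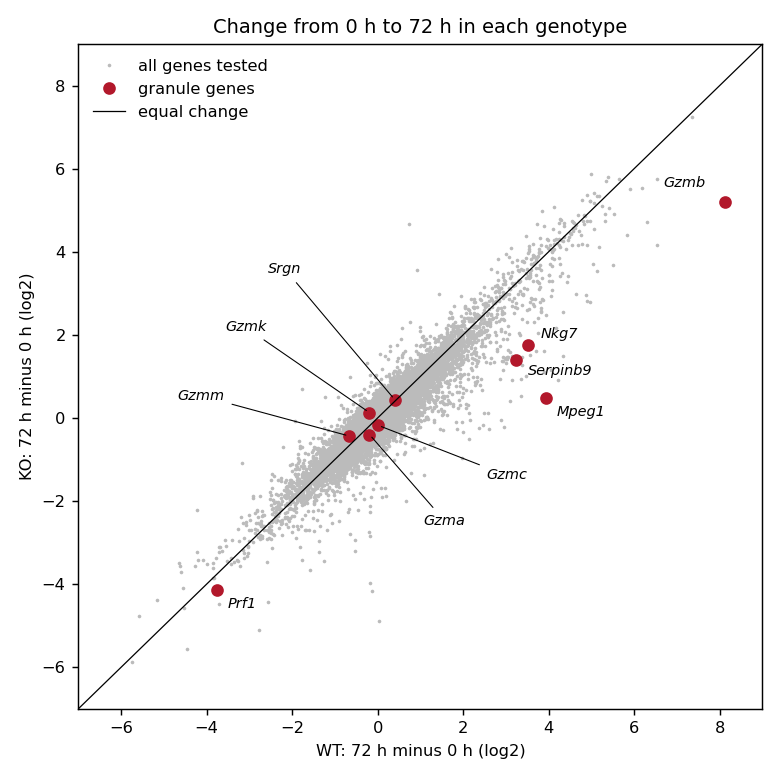
Change from 0 to 72 h in WT (log2, horizontal axis) against the same change in KO (log2, vertical axis) for all 22180 genes in grey and the 10 granule genes in red, with a line of equal change. Gzmb, Mpeg1, Nkg7 and Serpinb9 lie below the line, and Prf1 lies near it at -3.77 and -4.14. The 2 axes use separate arrays.

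Across the 8 group means the 4 genes ran alike, as a description with no test. Pearson's r was 0.98 between Nkg7 and Serpinb9, 0.97 between Gzmb and Nkg7, 0.94 between Gzmb and Serpinb9, 0.90 between Mpeg1 and Nkg7, 0.87 between Mpeg1 and Serpinb9 and 0.84 between Gzmb and Mpeg1. It was -0.81 between Gzmb and Prf1 and 0.14 between Gzmb and Srgn. The points share arrays, and the 72 h groups carry most of the range. The 4 genes were picked by their 72 h values, so a high r among them follows largely from that choice. Among 5148 genes whose group means spanned at least 1, the patterns most like Gzmb were those of Zfp768 (r = 0.998), Pcgf5 (0.997) and Hmgn3 (0.994). Those most like Mpeg1 were Sele and Cxcl10 (both 0.991), the second a chemokine gene induced by interferon, and Osr2 (0.990). For Nkg7 they were Kif9 (0.992), Fam126a (0.990) and Rai14 (0.987), and for Serpinb9 Unc93b1 (0.989), Sfxn2 and Fbxw17 (both 0.988). The pattern of Prf1 was most like those of Nr3c1 (0.995), the glucocorticoid receptor gene, Zfp236 and Tgoln1 (both 0.993).

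Genes that process, carry and release the granule content were set beside the 10. Of 11 measured granule proteases and inhibitors 0 were higher and 3 lower in KO at 72 h (6.33% of all genes called, 3.78% lower), with a median of -0.21. From 0 to 72 h the KO response was lower than that of WT for 5 of the 11 and higher for 0 (3.91% of all genes called, 2.86% lower), with a median of -0.46. These were Cst7 (-1.33), Serpinb6b (-1.16), Ctsw (-1.11), Ctsc (-0.46) and Ctsb (-0.46), with adjusted p of 0.000815, 0.00285, 0.00637, 0.0279 and 0.00875. Cathepsin W (Ctsw) was lower by -0.71 (SE 0.17, adjusted p = 0.0103), Serpinb6b by -0.63 (SE 0.17, adjusted p = 0.0196) and cathepsin B (Ctsb) by -0.48 (SE 0.07, adjusted p = 6.40e-05). Ctsw fell in both genotypes, from 8.62 ± 0.06 (SD, n = 3) to 4.15 ± 0.28 in WT and from 9.02 ± 0.09 to 3.45 ± 0.38 in KO, in the same direction as Prf1. Serpinb6b rose in both, from 5.25 ± 0.21 to 9.68 ± 0.12 in WT and from 5.79 ± 0.17 to 9.05 ± 0.30 in KO. Cst7, the inhibitor cystatin F, was higher in KO at 0 h (0.97, SE 0.17, adjusted p = 0.00101). In WT the members with the largest changes from 0 to 72 h were Ctsw (-4.46), Serpinb6b (4.42) and Cst7 (2.32).

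Of 18 genes of granule movement and release 2 were higher and 1 lower in KO at 72 h (6.33% of all genes called), with a median of -0.02. The synaptotagmin-like genes Sytl2 and Sytl1 were higher by 0.54 and 0.46 (SE 0.15 and 0.13, adjusted p = 0.0234 and 0.0257), and Lamp2, a lysosomal membrane protein gene, was lower by -0.33 (SE 0.10, adjusted p = 0.0449). Sytl3 was higher in KO at 0, 4 and 24 h (1.97, 1.097 and 0.53, adjusted p = 6.85e-09, 0.000115 and 0.0401). In WT the largest changes from 0 to 72 h were those of Stx11 (3.77), the syntaxin of granule fusion, Sytl2 (-2.46) and Sytl3 (2.18).

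**Figure D4:**
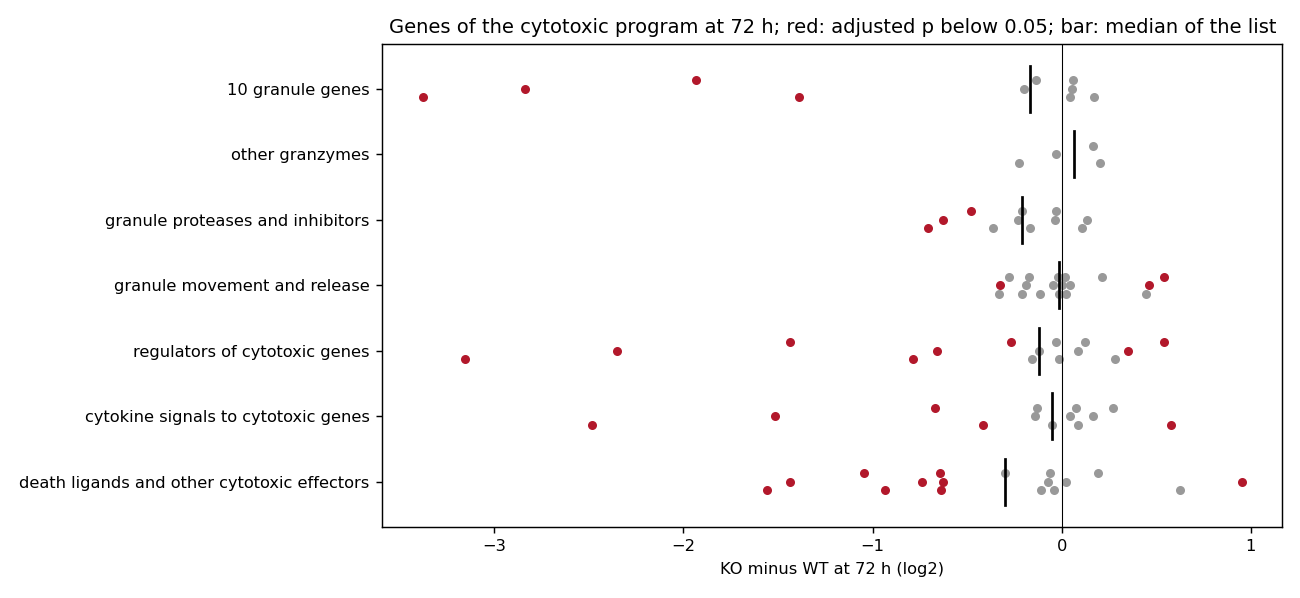
KO minus WT at 72 h (log2, horizontal axis) for each gene of the 10 granule genes and 6 related lists (vertical axis), in red where the adjusted p is below 0.05, with a bar at the list's median. The medians lie between -0.30 and 0.07, and single genes reach -3.38 (Mpeg1) and -3.15 (Eomes).

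Transcription factors known to regulate the cytotoxic program included some of the lower genes. Of 15 measured regulators 2 were higher and 6 lower in KO at 72 h (6.33% of all genes called, 3.78% lower), with a median of -0.12. Eomes was 7.32, 7.36 and 6.82 in WT and 3.89, 4.24 and 3.91 in KO at 72 h, a change of -3.15 (SE 0.17, adjusted p = 1.29e-12). Tbx21, which encodes T-bet, was 8.26, 7.87 and 7.88 against 5.49, 5.59 and 5.88 (-2.35, SE 0.17, adjusted p = 2.99e-10). Irf8 was 9.37, 9.37 and 8.94 against 7.63, 7.84 and 7.89 (-1.44, SE 0.15, adjusted p = 1.47e-07). For all 3 every KO array lay below every WT array at 72 h. The 2 higher genes, named after their values were seen, were Bcl6 (0.54, SE 0.11, adjusted p = 0.00186) and Bach2 (0.35, SE 0.10, adjusted p = 0.0425), both repressors of effector programs.

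Of the 6 regulators lower at 72 h, 3 were lower at 24 h. Whether these differences bear on the granule genes was not tested. At 24 h (11.3% of all genes called) Eomes was -0.92 (SE 0.17, adjusted p = 0.000868), Tbx21 -0.74 (SE 0.17, adjusted p = 0.00472) and Irf8 -0.68 (SE 0.15, adjusted p = 0.00302) in KO against WT. Stat4, lower at 72 h (-0.66, adjusted p = 9.28e-09), was higher at 24 h (0.18, adjusted p = 0.0482), as was Id2 (0.44, adjusted p = 0.00362), and Runx3 and Stat5b were not called at 24 h. At 4 h (4.13% of all genes called) Irf8 was lower (-0.67, adjusted p = 0.00738) and 4 of the 15 were higher, the largest being Stat4 (0.62, adjusted p = 6.30e-08) and Stat5a (0.50, adjusted p = 0.00236). At 0 h 0 of 15 were called. The KO response from 0 to 72 h was smaller than that of WT for Eomes (-2.68), Tbx21 (-2.26) and Irf8 (-1.90), with adjusted p of 6.22e-08, 6.88e-07 and 1.104e-06. In WT the largest changes of the list from 0 to 72 h were those of Irf8 (4.87), Irf4 (4.67) and Tbx21 (3.88).

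Of 13 genes of cytokine signals that feed this program 1 was higher and 4 lower in KO at 72 h (6.33% of all genes called), with a median of -0.05. Il12rb2, the signalling chain of the interleukin-12 receptor, was 10.60, 10.57 and 10.40 in WT and 7.83, 8.27 and 8.03 in KO (-2.48, SE 0.19, adjusted p = 9.05e-10). Il15ra was 7.63, 7.68 and 8.01 against 6.26, 6.14 and 6.38 (-1.51, SE 0.12, adjusted p = 7.47e-10). The arrays of both stood apart at 72 h. Il12rb1 was -0.67 (SE 0.19, adjusted p = 0.0284). The 1 gene higher at 72 h was Ifngr1 (0.58, SE 0.11, adjusted p = 0.000716), which was also higher at 24 h (0.79, adjusted p = 1.67e-05). At 4 h 5 of the 13 were higher and 1 lower in KO (4.13% of all genes called). The largest changes then were those of Ifngr1 (1.32), Il18r1 (1.11) and Il12rb2 (0.90, SE 0.19), with adjusted p of 5.24e-09, 9.87e-06 and 0.00554. Il2, the growth factor gene, was lower in KO at 24 h (-1.996, SE 0.18, adjusted p = 1.99e-08), and at 72 h its means were 10.27 in WT and 10.31 in KO. At 0 h Il2rb and Ifngr1 were higher in KO (0.88 and 0.70, adjusted p = 1.02e-06 and 0.000192).

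**Figure D5:**
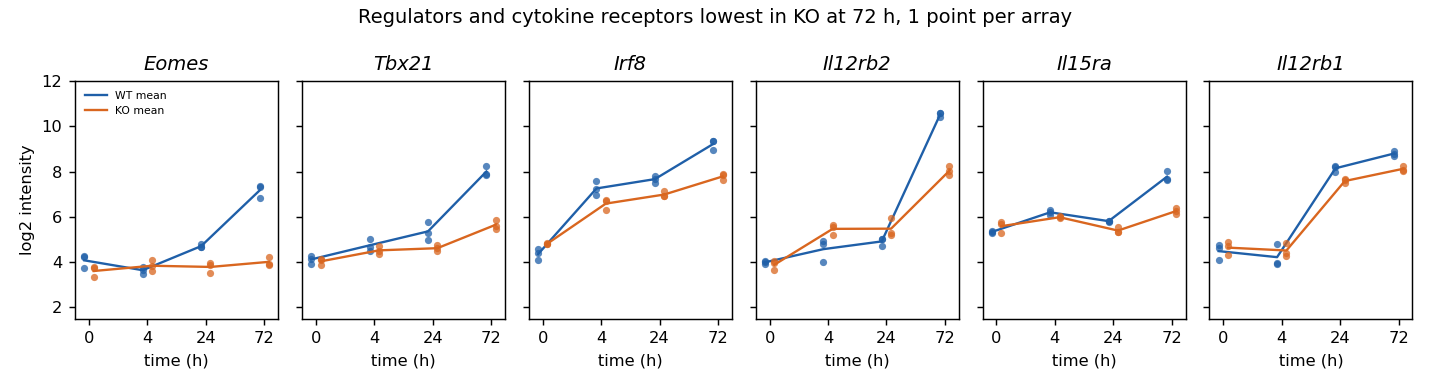
Levels of 3 regulators and 3 cytokine receptor genes (log2 intensity, vertical axis) by time after stimulation (h, evenly spaced), 1 point per array, with lines through the means of 3 arrays, WT in blue and KO in orange. At 72 h the KO arrays lie below the WT arrays for all 6, with Eomes at 3.89 to 4.24 in KO and 6.82 to 7.36 in WT.

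Of 17 death ligands and other effectors 1 was higher and 8 lower in KO at 72 h (6.33% of all genes called), with a median of -0.30, the lowest of these lists. The chemokine gene Ccl5, whose product is stored in granules, was 10.21, 9.90 and 10.30 in WT and 8.12, 8.75 and 8.86 in KO (-1.56, SE 0.20, adjusted p = 4.91e-06). The receptor gene Slamf7 was 9.18, 9.17 and 9.08 against 7.61, 7.72 and 7.79 (-1.43, SE 0.14, adjusted p = 6.71e-08), and Crtam was -1.05 (SE 0.17, adjusted p = 0.000159). KO arrays of Ccl5 and Slamf7 lay below all WT arrays. At 24 h Ccl3, Ccl4 and Crtam were lower in KO (-1.77, -1.34 and -1.21, adjusted p = 2.95e-08, 8.64e-08 and 3.08e-05), and at 0 h Klrd1, Ccl3 and Fasl (-0.90, -0.86 and -0.65, adjusted p = 0.0299, 0.0022 and 0.0115). In WT the largest changes from 0 to 72 h were those of Ccl5 (5.12), Ccl3 (4.995) and Slamf7 (3.83).

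Markers of other lymphocytes that carry granules were set beside these results. Of 10 natural killer and innate lymphoid markers 0 were lower and 1 higher (Klrc1, 0.62) in KO at 72 h (6.33% of all genes called, 3.78% lower). Their summed level (log2 of the sum) lay between 6.47 and 6.63 in WT and 6.55 and 6.73 in KO. The receptor gene Klrk1, listed here among the effectors, was lower in KO at 72 h, at 2.33 ± 0.15 against 2.96 ± 0.54 (SD), a change of -0.63 (SE 0.16, adjusted p = 0.0137). Both levels are too low to be told from background, and the WT arrays scattered widely. Klrd1 and Klrg1, also listed among the effectors, were not called at 72 h. The defining markers were low: Ncr1 was 3.42 in WT and 3.49 in KO, and Klrb1c 2.43 and 2.54. Of the 2 CD8 T cell markers Cd8b1 was lower in KO at 72 h, at 5.79 against 6.45 (-0.65, SE 0.11, adjusted p = 0.000356), and also at 24 h (-0.41, adjusted p = 0.0191). Cd8a was 3.07 against 3.23 and not called, and the summed range of both was 5.86 to 6.12 in KO and 6.45 to 6.74 in WT. Their part in the difference of Gzmb, Nkg7 and Serpinb9 at 72 h was not tested.

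Mpeg1 is also a macrophage gene, so myeloid and dendritic markers bear on it. Of 13 myeloid markers 0 were higher and 1 lower at 72 h (Cd68, -0.58, SE 0.10, adjusted p = 0.000488), where 6.33% of all genes were called and 3.78% were lower. Their summed range was 7.29 to 7.41 in KO and 7.49 to 7.63 in WT. At 72 h Csf1r was 3.28 in WT and 3.23 in KO, Adgre1 2.22 and 2.10, and Cd14 2.70 and 2.80. Of 7 dendritic markers Bst2 was lower in KO at 72 h, at 8.77 against 9.71 (-0.94, SE 0.22, adjusted p = 0.00795), and no other was called. The summed range was 9.30 to 9.64 in KO and 10.06 to 10.19 in WT. Such sums weigh most the highest gene of a list, here Bst2 and, for the myeloid list, Cd68. From 0 to 72 h the mean of Bst2 went from 6.33 to 9.71 in WT and from 6.06 to 8.77 in KO. At 72 h Cd209a was 7.82 in KO and 7.81 in WT, and Itgax 2.88 and 2.83. Of 9 mast cell and basophil markers, which can carry granule proteases, 0 were called (6.33% of all genes), with a summed range of 5.99 to 6.06 over both genotypes at 72 h. The part of Cd68 and Bst2 in the Mpeg1 difference was not tested.

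B cell markers moved with genotype. The mean of 12 of them was 4.32, 3.73 and 4.11 on the KO arrays at 72 h and between 3.57 and 3.68 on the WT arrays, with a median KO minus WT change of 0.73, 0.51, 0.34 and 0.32 at 0, 4, 24 and 72 h. The summed range at 72 h was 7.61 to 8.43 in KO and 7.32 to 7.44 in WT, and Fcer2a was called (1.27). At 0 and 4 h 3 myeloid markers (S100a8, S100a9 and Lyz2) were higher in KO as well. KO array 2 had the lowest B cell level of the KO arrays at every time. With that array alone for KO, a setting chosen after these values were seen, Gzmb at 72 h was -2.99, Mpeg1 -3.56, Nkg7 -1.92 and Serpinb9 -1.26 (adjusted p = 6.65e-08, 3.16e-08, 0.000276 and 0.0118), with the single KO array of a group assumed to vary like the other groups.

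The neighbours of the 10 genes in the reference gene order were compared, since TRIM28 is known to act through chromatin. Of 48 genes within 3 places on either side, leaving out members, the numbers called in KO against WT were 1, 0, 4 and 1 at the 4 times in order, beside 2.34%, 4.13%, 11.3% and 6.33% of all genes. All of those calls were lower in KO. Among all called genes 75.3%, 34.6% and 40.4% were higher in KO at 0, 24 and 72 h. The 24 h share became 53.3% when the table was quantile normalized again. Beside Mpeg1, Fam111a was -0.70 at 0 h and -0.38 at 24 h (adjusted p = 0.000334 and 0.0279), with no call at 72 h. At 24 h Bsg beside Gzmm was -0.27, and Supv3l1 and Ddx21 near Srgn were -0.38 and -0.40. At 72 h the 1 called neighbour was Serpinb6b, next to Serpinb9 in the serpin cluster of chromosome 13. Nkg7 lies on chromosome 7, Prf1, Srgn and Gzmm on 10, Serpinb9, Gzma and Gzmk on 13, Gzmb and Gzmc on 14 and Mpeg1 on 19.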

How the data were processed

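Affymetrix arrays measured RNA of WT and KO CD4 T cells in 24 samples, grouped and numbered by their titles. The deposited values are log2 intensities. Per the submitters' processing notes, the authors ran RMA from the R package oligo (R 3.1.0). RMA gives all arrays nearly the same distribution and compresses low signals. The labels state no filter, batch or probe position.

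The table holds 41345 probe sets. The platform annotation lists 25335, of which 23521 have 1 gene symbol and 1814 several, and 16010 probe sets are unnamed here. By Entrez ID, 23328 were matched to RefSeq (GRCm38.p6) for current names and gene order. Only probe sets with 1 gene symbol were used. Where a gene had more than 1 of them (1082 genes), that of highest mean stood for it, giving 22180 genes. Each member had 1 probe set of its own. No 2 columns were identical, and the highest correlation between 2 arrays was 0.992. The number of arrays limits the precision.

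Group means were fitted with limma 3.58.1 in R 4.3.3 to all 24 arrays, with eBayes and a mean-variance trend (16 residual and 8.81 prior degrees of freedom). Tests were two-sided with Benjamini-Hochberg adjustment over all genes at 0.05, and the code was tested on simulated data. Alternatives covered the probe set rule, a filter on low values, quantile normalization, the samples in the fit, the eBayes options, the array number as a block, arrays 1 and 2 alone, KO array 2 alone, and each array left out. Motifs were searched in the 250 bases before each start.

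Named were Trim28, all members, up to 3 genes of each list with the largest called change in KO against WT or in WT against 0 h (not all were printed), the 3 genes most like each member whose group means spanned at least 1 on the log2 scale, and called neighbours. Called members of the marker lists were named on the same rule, and other markers to give their level. Ctsc, Runx3, Stat4, Stat5b and Id2 at 24 or 72 h, and Ifngr1, Klrk1, Klrd1 and Klrg1 at 72 h, were named after their values were seen. The members and lists were chosen with earlier results of these data known. Not analysed here were some of the listed genes, among them Gzme, Serpina3g, Arl8b, Zeb2, Tcf7 and Il2rg.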

Additional observations from a re-analysis of the deposited data

Results flagged for a closer look

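For 4 of the 10 genes the response to stimulation from 0 to 72 h differed between KO and WT by the test of the difference itself (limma, adjusted over all genes). On the log2 scale the KO response minus the WT response was -2.91 for Gzmb, -3.47 for Mpeg1, -1.77 for Nkg7 and -1.84 for Serpinb9. In WT every 72 h array lay above every 0 h array for all 4 genes, and in KO the rise was smaller, with Mpeg1 rising by 0.48 against 3.94 in WT. With KO array 2 as the only KO array the 4 differences were -3.12, -3.63, -1.68 and -1.75 (adjusted p = 6.22e-06, 5.29e-06, 0.031 and 0.0232).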

How the results depend on the processing

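Over 34 alternatives, 5729 values of the members were recomputed. Of these, 5582 kept their direction where called and their side of the threshold, 123 lost a call, 24 gained one and 0 reversed. The 4 lower genes in KO at 72 h, and the 4 smaller responses to 72 h, stayed 4 in number under all 34. At 72 h the ranges of KO minus WT were -2.99 to -2.76 for Gzmb, -3.56 to -3.26 for Mpeg1, -2.11 to -1.80 for Nkg7 and -1.51 to -1.26 for Serpinb9, with highest adjusted p of 6.65e-08, 3.16e-08, 0.000276 and 0.0118. Leaving out each array gave 0 to 1 called members for KO against WT at 4 h (1 without WT array 3 of 4 h) and 3 to 6 for 24 h against 0 h in WT, where the count was 3 (6 without WT array 3 of 0 h). Using KO array 2 by itself for KO, chosen after seeing the data, the count fell from 5 to 2 for 4 h against 0 h in KO, from 7 to 4 for 24 h against 4 h and from 6 to 3 for 72 h against 24 h. That setting has fewer arrays.

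A filter at the 40th percentile of the mean (3.24) kept 7 of the 10 members. Quantile normalization again moved the share of higher genes among all called genes from 75.3% to 61% at 0 h, 79.8% to 66.2% at 4 h and 34.6% to 53.3% at 24 h in KO against WT, and from 28.2% to 60.9% for the 24 h response, and the medians of all genes by at most 0.07. Over all genes 1405 were called at 72 h, 707 on arrays 1 and 2 only and 481 when KO was array 2 only. With the replicate block the member counts were 4 at 72 h and 0 at 0, 4 and 24 h in KO against WT, and 1426 genes were called at 72 h. The array numbers are not stated to pair samples, and KO and WT arrays of the same number correlated weakly (r between 0.03 and 0.17 across genes, own number best for 3 of 3 at each time). Without detection calls, low values such as those of Gzma, Gzmc and Gzmk, and of Gzmb and Mpeg1 before they rose, limit what can be said of a change.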
